A study of Homo sapiens with 2 samples.

Results

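Receptors, scaffolds and adaptors of the cullin RING ubiquitin ligases were compared between HT29 cells transfected with an siRNA against *REG4* and HT29 cells transfected with a control siRNA. HT29 is an established human colon cancer cell line, and *REG4* encodes a secreted lectin-like protein of the regenerating family. The series holds 2 arrays of total RNA, 1 for siREG4 and 1 for siControl. The title and source name of the siREG4 array name REG4, by which it was grouped, although its treatment label names GATA6. The sources used here do not say which of the study's REG4 siRNA duplexes was used, or how long after transfection RNA was taken. The members were the genes whose symbol begins with FBXL, FBXO, FBXW, SKP, CUL, KLHL, KBTBD, DCAF or ASB (followed by a number for CUL, KLHL, DCAF and ASB), and 152 such genes were found among 14812 named genes. They were measured by 158 probe sets, each a group of short probes that reads 1 transcript cluster. *REG4* itself was not analysed here, since none of the named probe sets carried its symbol.

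Cullin RING ligases attach ubiquitin to proteins and so mark many of them for the proteasome. Each is built on a cullin scaffold, which holds a RING protein at one end and, at the other, an exchangeable receptor that picks the substrate. F-box proteins (FBXL with leucine-rich repeats, FBXW with WD40 repeats, FBXO with other domains) reach CUL1 through the adaptor SKP1. BTB-Kelch proteins (KLHL and KBTBD) bind CUL3 directly, DCAF proteins join CUL4 through DDB1, and ASB proteins, with ankyrin repeats and a SOCS box, join CUL5 through the elongins. *FBXO32* encodes atrogin-1, best known as the F-box receptor that is induced in wasting muscle, and *KLHL24* encodes a CUL3 receptor known in skin for its control of keratin 14.

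The deposited log values were centred on 0 in every probe set, so a gene's siREG4 and siControl values are of the same size with opposite signs. They hold the difference between the arrays and no level, so epithelial markers could not be used to check the cell line. The log base is not stated and was taken as 2, so every fold rests on that choice. Each difference was taken as siREG4 minus siControl. There was 1 array per group, so no difference has a replicate check, an error or a p-value. In bulk RNA, a change in the share of cells in some state and a change in RNA per cell cannot be told apart. A 1.4-fold difference, the fold used in the methods of the study, was taken as the threshold (0.49 on the log2 scale).

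Among the 152 genes, 4 were at least 1.4-fold higher and 1 was at least 1.4-fold lower in the siREG4 array. As a share of members this was 2.63% higher and 0.658% lower, against 1.51% higher and 1.67% lower over all named genes. At 2-fold, 2 members were higher (1.32%) and 0 were lower, against 0.176% and 0.0878% of all named genes. The pair past 2-fold was *FBXO32* and *KLHL24*, whose large differences were known when the group was put together, so these shares are a description. Among the 150 other members, 2 were higher past 1.4-fold (1.33%) and 1 was lower (0.667%). Most members lay close to 0. The median of the 152 differences was 0.0, as it was over all named genes. Above 0 lay 74 members, with 72 below and 6 at exactly 0, against 7104, 7215 and 493 of the 14812 named genes. Of the members, 100 (65.8%) differed by less than 0.1, against 61.9% of all named genes.

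*FBXO32* had a value of 0.77 in siREG4, against -0.77 in siControl, a difference of 1.53 or 2.90-fold higher. *KLHL24* had 0.61 in siREG4, against -0.61 in siControl, a difference of 1.23 or 2.34-fold higher. They ranked 4 and 11 from the top among the 14812 named genes, and each was the highest of its family. The antisense RNA *FBXL19-AS1* had 0.28 in siREG4, against -0.28 in siControl (1.47-fold higher). *FBXL20*, an F-box receptor known in mouse neurons for turnover of a presynaptic protein, had 0.25 in siREG4, against -0.25 in siControl (1.41-fold higher), just inside the threshold. The only member past the threshold downward was *ASB13*, an ankyrin repeat receptor of CUL5, with -0.27 in siREG4, against 0.27 in siControl (1.45-fold lower). All 5 of these genes were read by 1 probe set each.

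The nearest members outside the threshold were *FBXO33* (0.39) above and *KBTBD6* (-0.40) below. As a gauge of array noise, the 84 protein-coding keratin-associated protein (*KRTAP*) genes of hair, which colon cells should not express, ranged from -0.22 to 0.30 with an SD of 0.09 across genes. Their signal is unknown, and they may not stand for probe sets of expressed genes. Of the members, 7 lay above that range and 6 below it (4.61% and 3.95%), against 4.79% and 9.20% of all named genes.

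**Figure D1:**
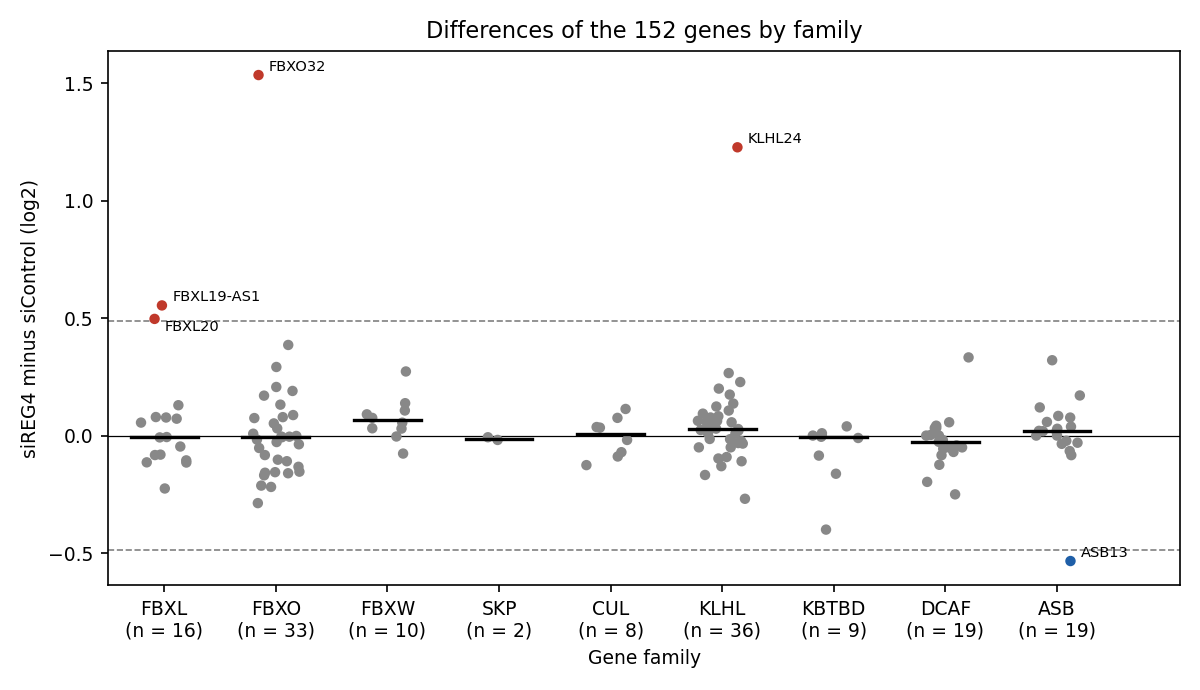
Difference between the siREG4 and siControl arrays (log2, vertical axis) for each of the 152 genes, by family, with 1 point per gene, the family median as a black bar and the 1.4-fold thresholds dashed. Red points are higher and blue points lower past 1.4-fold; *FBXO32* (1.53) and *KLHL24* (1.23) lie well above all other points, and family medians lie between -0.03 and 0.07.

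Promoter sequence is shown for *KLHL24*, *FBXL20* and *ASB13*, 3 of the 4 protein-coding genes past 1.4-fold, as the 250 bases before the RefSeq gene start (GRCh38.p14, 5′ to 3′ on the gene's strand). The *KLHL24* stretch is chr3:183635373-183635622 on the plus strand, the *FBXL20* stretch chr17:39402557-39402806 on the minus strand and the *ASB13* stretch chr10:5666596-5666845 on the minus strand. Capitals mark a cyclic AMP response element (TGACGTCA) in *FBXL20*, and in the other sequences TACANNTCC, letters from the core of the element bound by ZNF143.
KLHL24: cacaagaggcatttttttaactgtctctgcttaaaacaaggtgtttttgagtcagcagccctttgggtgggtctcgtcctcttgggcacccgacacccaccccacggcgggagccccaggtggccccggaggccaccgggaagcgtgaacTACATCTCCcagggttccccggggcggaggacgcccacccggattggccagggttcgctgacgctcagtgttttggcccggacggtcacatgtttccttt
FBXL20: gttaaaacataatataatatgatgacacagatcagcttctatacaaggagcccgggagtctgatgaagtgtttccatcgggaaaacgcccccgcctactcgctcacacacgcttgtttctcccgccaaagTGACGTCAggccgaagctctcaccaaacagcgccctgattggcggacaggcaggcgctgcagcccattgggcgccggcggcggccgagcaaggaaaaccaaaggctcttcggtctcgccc
ASB13: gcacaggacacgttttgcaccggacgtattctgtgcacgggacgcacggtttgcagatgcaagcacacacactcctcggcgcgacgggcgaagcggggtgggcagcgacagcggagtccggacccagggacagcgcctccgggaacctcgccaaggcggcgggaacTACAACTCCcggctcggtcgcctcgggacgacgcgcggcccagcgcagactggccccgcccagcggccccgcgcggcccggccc

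The *KLHL24* and *ASB13* promoters, of a gene that was higher and one that was lower, thus both held the TACANNTCC letters. These letters were chosen after the sequences had been read. Searched on both strands of the RefSeq windows of 250 bases before to 50 after a gene start, they were found in 8 of the 120 members with a window (6.67%), against 4.04% of 27305 windows in all. The 8 include *KLHL24* and *ASB13*, whose sequences had been read before the letters were chosen, so the share cannot show an enrichment. The other 6 members were *FBXL19-AS1* (0.55), *CUL4B* (0.08), *ASB4* (-0.03), *FBXL19* (-0.05), *DCAF17* (-0.06) and *FBXW11* (-0.08), so the letters went with differences of either sign. TGACGTCA was found in 4 members (3.33%), against 1.98% of all windows, and *FBXL20* was the only one of the 4 past 1.4-fold. The forkhead letters GTAAACA, read by FoxO factors, were found in 2 members (1.67%), *FBXO8* (-0.29) and *ASB8* (0.08), against 3.41% of all windows, and the E2F letters TTTGGCGC in 1 member, *KLHL42* (0.01), against 0.659%. None of the 4 searches overlapped another in the sequences shown. *FBXO32* was not among the 120 members searched, so these counts say nothing of its promoter.

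*FBXO32* stood apart from the other FBXO genes. Of the 33 FBXO genes, the next highest was *FBXO33* at 0.39, so that the gap below *FBXO32* was 1.15, whereas the other 32 genes together spanned 0.67. Their median was -0.01, with 12 above 0 and 20 below. None of them passed 1.4-fold, against 1.51% higher and 1.67% lower over all named genes. After *FBXO33* came *FBXO28* (0.29) and *FBXO11* (0.21), the receptor that targets BCL6 in B cells. *FBXO7*, a gene of hereditary parkinsonism, was at 0.13. At the low end were *FBXO8* (-0.29), which carries a Sec7 domain, *FBXO25* (-0.22), *FBXO5* (-0.21) and *FBXO22* (-0.17). *FBXO25* is the closest relative of *FBXO32* in sequence, and its difference had the opposite sign. *FBXO5* encodes EMI1, which blocks the anaphase-promoting complex before mitosis and is itself made in cycling cells.

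*KLHL24* was set off from its family in a similar way. Among the 36 KLHL genes the next was *KLHL7* at 0.27, a gap of 0.96, and the other 35 genes spanned 0.53 with a median of 0.03, 22 above 0 and 13 below. None of these 35 passed 1.4-fold, against 1.51% higher and 1.67% lower over all named genes. *KLHL5* (0.23) and *KLHL29* (0.20) followed *KLHL7*. The lowest were *KLHL12* (-0.27), the CUL3 receptor that enlarges COPII coats for procollagen export, *KLHL36* (-0.17) and *KLHL15* (-0.13). The mitotic receptors *KLHL9*, *KLHL13*, *KLHL21* and *KLHL22*, which act on Aurora B or PLK1, were at 0.08, 0.06, 0.14 and -0.03. *KLHL3*, the kidney receptor for WNK kinases, was at 0.09, and *KLHL20* at 0.11. Family members known from striated muscle, *KLHL31*, *KLHL40* and *KLHL41*, were at -0.03, 0.06 and -0.05.

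**Figure D2:**
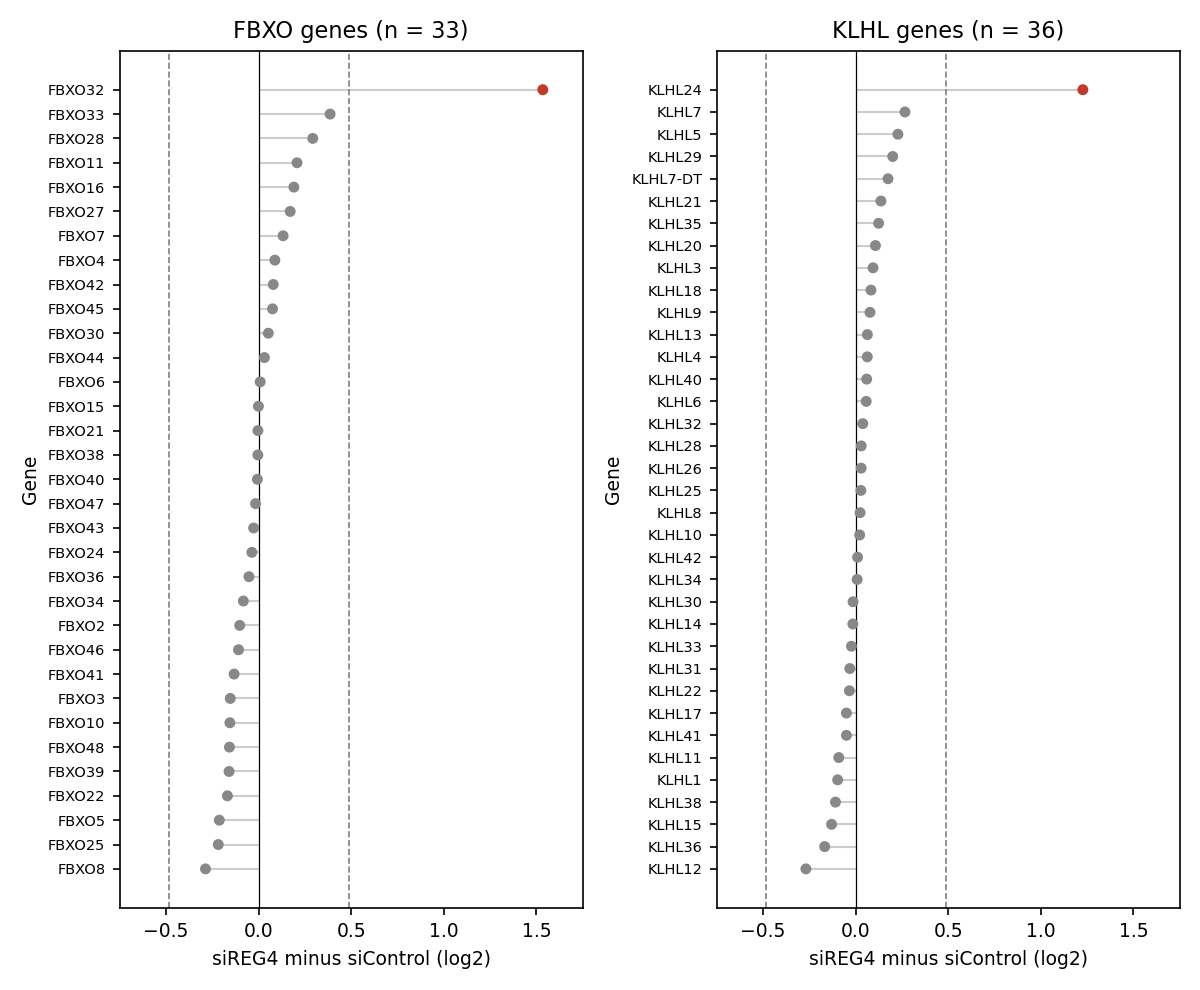
Difference between the siREG4 and siControl arrays (log2, horizontal axis) for each of the 33 FBXO and 36 KLHL genes, ranked from the highest at the top, with a line from 0 and the 1.4-fold thresholds dashed. *FBXO32* and *KLHL24* (red) are the only genes of these families past 1.4-fold, with gaps of 1.15 and 0.96 to *FBXO33* and *KLHL7*.

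Both genes lie next to another member in RefSeq gene order, and neither neighbour passed 1.4-fold. *KLHL38*, beside *FBXO32*, was at -0.11, against 1.53 for *FBXO32*, and *KLHL6*, beside *KLHL24*, was at 0.06, against 1.23 for *KLHL24*. Among the 8 such pairs of neighbouring members, unequal values were also found for *KBTBD6* (-0.40) and *KBTBD7* (-0.01), which encode partner subunits of a CUL3 receptor for the Rac activator TIAM1. The chromosome 1 group *FBXO2* (-0.10), *FBXO44* (0.03) and *FBXO6* (0.01), a set of related F-box genes, lay close to 0.

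In the other receptor families, no difference was as large as those of *FBXO32* and *KLHL24*. *FBXL19-AS1* (0.55), *ASB13* (-0.53), *FBXL20* (0.50) and *KBTBD6* (-0.40) lay farther from 0 than any other FBXO or KLHL gene. The 16 FBXL genes had a median of -0.01. Both of their members past the threshold were higher (12.5%, against 1.51% of all named genes). Of these 2, *FBXL19-AS1* is not protein-coding, so *FBXL20* was the only one of the 15 protein-coding FBXL genes past the threshold. Below *FBXL20* (0.50) came *FBXL5* (0.13), the iron-sensing receptor for IRP2, and *FBXL8* (-0.23) and *FBXL18* (-0.11) were the lowest. *FBXL19-AS1* (0.55) was higher, whereas *FBXL19*, the coding gene it runs antisense to, was at -0.05. Whether the probe sets of this pair share signal was not tested. In the FBXW family, 8 of 10 genes lay above 0 (median 0.07), against 7104 of the 14812 named genes, and 7 of the 10 differed by less than 0.1. *FBXW10B* (0.27) and the pseudogene *FBXW4P1* (0.14) were the highest. *FBXW10* (0.00) and *FBXW11* (-0.08), a receptor for beta-catenin and IkB, were the lowest.

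Of the 9 KBTBD genes, *KBTBD6* (-0.40) and *KBTBD11* (-0.16) were the lowest and *KBTBD4* (0.04) and *KBTBD12* (0.01) the highest, with a median of -0.01. The 19 DCAF genes had a median of -0.03, from *DCAF16* (-0.25) and *DCAF12* (-0.20), a receptor for C-terminal degrons, to *DCAF7* (0.06) and *DCAF5* (0.33). *DCAF1*, the receptor that the HIV protein Vpr takes over, was at 0.04, and *DCAF15*, the receptor engaged by anticancer sulfonamides, had a difference of exactly 0. The 19 ASB genes had a median of 0.02. *ASB6* (0.32) and *ASB16* (0.17) were the highest, and after *ASB13* (-0.53) the lowest was the pseudogene *ASB9P1* (-0.08).

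The scaffolds on which these receptors sit differed little. The 8 cullin genes lay between -0.13 and 0.11, with a median of 0.01, 4 above 0 and 4 below. None passed the threshold, against 1.51% higher and 1.67% lower over all named genes. *CUL3*, the scaffold of the Kelch receptors, was the lowest (-0.13), followed by *CUL2* (-0.09) and *CUL1* (-0.07), the scaffold of the F-box receptors. *CUL7*, which works with FBXW8, was the highest (0.11), and the CUL4 scaffolds *CUL4B* and *CUL4A* were at 0.08 and 0.04. *SKP1*, the adaptor that *FBXO32* needs to reach CUL1, was at -0.01, and its pseudogene *SKP1P2* at -0.02.

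Of the 152 genes, 145 were protein-coding, out of 156 RefSeq protein-coding genes with such names. The other 11, among them *SKP2* and *FBXW7*, were not analysed here. The 7 members that are not protein-coding were antisense or divergent RNAs (*FBXL19-AS1*, *KLHL7-DT* and *ASB16-AS1*) and pseudogenes. *KLHL7-DT* (0.17) and *KLHL7* (0.27), which start from opposite strands, were both above 0, while *ASB16-AS1* (-0.07) and *ASB16* (0.17) differed in sign. Pseudogenes resemble their parent genes closely, and their probe sets may read both. Among the 5 members with several probe sets, those of *ASB1* (0.11 and -0.03) and *KLHL42* (0.05, -0.01 and -0.01) differed in sign. The probe sets of *FBXO22* were at -0.32 and -0.02, so its mean of -0.17 rests mainly on 1 of them.

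Receptors and adaptors of the same ligases that carry other names were then examined from 4 lists, with 53 of 64 listed genes measured. Of these, 1 was higher and 2 were lower past 1.4-fold (1.89% and 3.77%, against 1.51% and 1.67% of all named genes), and their median was 0.03. *CCNF*, the F-box protein cyclin F of the G2 phase, had -0.31 in siREG4, against 0.31 in siControl (1.53-fold lower). *DTL*, the CUL4 receptor that destroys CDT1 during S phase, had -0.28 in siREG4, against 0.28 in siControl (1.47-fold lower). *WSB1*, a SOCS box receptor, had 0.29 in siREG4, against -0.29 in siControl (a difference of 0.58).

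In the list of other F-box proteins, 5 of 7 measured genes lay above 0 (median 0.19), against 7104 of the 14812 named genes. *KDM2A* (0.46) and *LMO7* (0.34) were the highest, and *BTRC*, the paralog of *FBXW11*, was at 0.19. The lowest after *CCNF* was *NCCRP1* (-0.05). Among 11 BTB and Kelch receptors (median 0.14), *IVNS1ABP* (0.35) and *ENC1* (0.29) were the highest and *RHOBTB3* (-0.37) and *SPOPL* (-0.31) the lowest. *KEAP1*, the oxidative stress sensor that holds NRF2 in check, was at exactly 0. Among 26 receptors of CUL2 and CUL5 (median -0.0040), *SOCS7* (0.44) came next to *WSB1*, and *LRR1* (-0.41), which helps to unload the replicative helicase at the end of replication, and *SOCS6* (-0.26) were the lowest. Of 9 genes of the CUL4 list (median -0.03), *AMBRA1* (0.38), the receptor for D-type cyclins, and *BRWD3* (0.15) were the highest, and *DDA1* (-0.33) was the lowest after *DTL*.

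The shared machinery had no gene past 1.4-fold in either direction (0 of 21 measured of 35 listed), and its median was 0.01. Over all named genes, 1.51% were higher and 1.67% lower. Coverage was partial, with 6 of 11 core genes and 5 of 14 neddylation and exchange genes measured. In the core list, *ANAPC2* (0.38) and the E2 enzyme *CDC34* (0.27), which extends ubiquitin chains, were the highest of 6 genes. The lowest were *ANAPC11* (-0.06) and *UBE2R2* (-0.01). *ANAPC2* and *ANAPC11* encode subunits of the anaphase-promoting complex and are not shared with the receptors above. *CAND1* (-0.27), which exchanges F-box receptors on CUL1, and *NAE1* (-0.17), a subunit of the NEDD8-activating enzyme, were the lowest of 5 neddylation and exchange genes, and *UBA3* (0.02) and *SENP8* (0.04) the highest. All 10 subunits of the COP9 signalosome, which takes NEDD8 off cullins, were measured. They ranged from *COPS6* (-0.27) and *GPS1* (-0.20) to *COPS9* and *COPS2*, each at 0.16, with a median of -0.02 and 6 of 10 below 0.

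**Figure D3:**
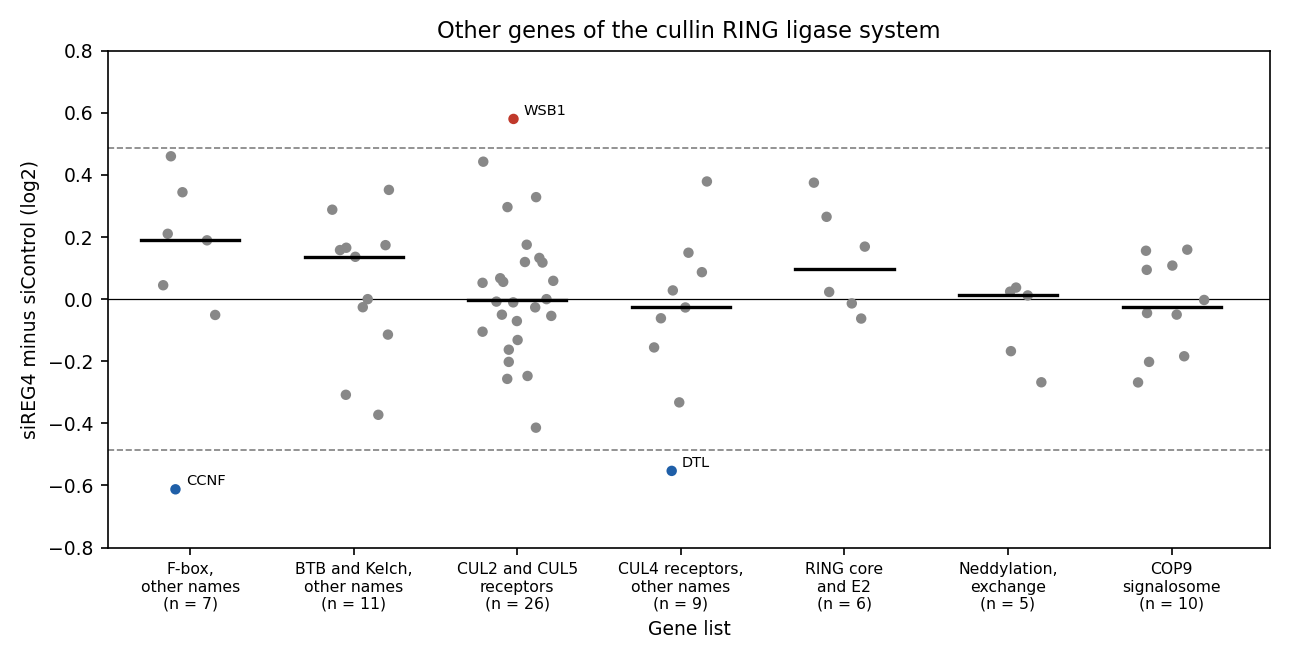
Difference between the siREG4 and siControl arrays (log2, vertical axis) for the measured genes of 7 lists of the cullin RING ligase system outside the 152 members, with 1 point per gene, list medians as black bars and the 1.4-fold thresholds dashed. *WSB1* (0.58) is the only gene past the upper threshold, *CCNF* (-0.61) and *DTL* (-0.55) the only genes past the lower one.

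*FBXO32* is known in muscle as a target of FoxO transcription factors, and other FoxO targets and the factors themselves were therefore listed. The list was drawn up with earlier results of these data known. Of 20 measured genes (27 listed, without *FBXO32* and *KLHL24*), 15 lay above 0 and 5 below, with a median of 0.03. Over all 14812 named genes, 7104 lay above 0 and 7215 below, with a median of 0.0. Of the 20 genes, 11 (55%) differed by less than 0.1, against 61.9% of all named genes. In this list 1 gene (5%) was higher past 1.4-fold and 0 were lower, against 1.51% and 1.67% of all named genes. It was *TP53INP1* (0.52), a regulator of autophagy that p53 also induces. Next came *FOXO4* (0.34), *TXNIP* (0.31), an inhibitor of thioredoxin and glucose uptake, *GABARAPL1* (0.29), an autophagosome protein, and *CCNG2* (0.25). *FOXO1* and *FOXO3* were at 0.17 and 0.03, and the insulin receptor substrate *IRS2* at 0.04. The lowest were *PINK1* (-0.11) and *KLF6* (-0.04).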

How the data were processed

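Total RNA of transfected HT29 cells was run on Affymetrix Human Gene 2.0 ST arrays (1 per group), and GeneSpring was used by the authors. The deposited log values, whose base is not stated and which were treated as log2, formed 1 table of 44629 probe sets. In each row the 2 arrays add up to 0 (tolerance 1.1e-06), so the authors had centred the values and no signal level is kept. For background correction, summarization, normalization between arrays and filters, nothing was given in the sources used here. Such steps set the size of every difference, and no noise estimate can be had from 1 array per group. The number of arrays limits the precision.

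Platform annotation named 15835 probe sets with 1 symbol each. Gene types, neighbours and synonyms came from RefSeq (GRCh38.p14), in which all 152 members matched, and 120 had a promoter window. Probe sets of a gene were averaged, no filter on low values was applied, and genes at or past 1.4-fold were counted. The genes named were *FBXO32*, *KLHL24*, members past 1.4-fold, members next to the threshold, the 2 lowest and 2 highest of each family or list, and members whose probe sets differ in sign. Others were named for their known roles after their values were seen. Members and lists were chosen with earlier results of these data known, and motifs were chosen late. Scripts were tested on simulated data. Python 3.11.15, numpy 2.4.6, pandas 2.3.3 and matplotlib 3.10.9 were used. Alternatives were 1.2-fold and 2-fold thresholds, other choices of probe set, quantile normalization, centring on the median of named genes, protein-coding genes only and, chosen after seeing the data, a natural log base.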

Additional observations from a re-analysis of the deposited data

How the results depend on the processing

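The lower and higher counts of 1 and 4 members at 1.4-fold became 0 and 2 at a 2-fold threshold and 4 and 10 at 1.2-fold, which follows from the threshold itself. If the deposited values were natural logs (chosen after seeing the data), *KBTBD6* and *FBXO33* would also pass 1.4-fold and the counts would be 2 and 5. *FBXO32* would then be 4.64-fold and *KLHL24* 3.41-fold higher, in place of 2.90-fold and 2.34-fold. The other 10 alternative counts, from other probe sets, quantile normalization, protein-coding genes only (3 higher, without *FBXL19-AS1*) and genes with 1 probe set, were within 1.5 times of the counts reported. Quantile normalization lowered the *FBXO32* difference to 1.42 and the *KLHL24* difference to 1.10, and the cause was not tested. It was applied to values already centred in each probe set, so it is no check of the normalization between arrays. Each stayed the highest of its family in the 2 alternatives for rank, which could not have lowered it. The choice of probe set could not change the counts at 1.4-fold either, since no probe set of the 5 members with several passed that threshold. All 50 alternative medians of the members and the 9 families moved by at most 0.0102 from those reported. Centring changed none of them, since the median over named genes was already 0.0. Leaving out a replicate was not possible with 1 array per group, and no paired analysis was possible because each group has 1 array. Signal over background is unknown, so it cannot be said which members near 0 were silent and which were expressed at similar levels in both arrays.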

Other observations

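Messages of proteins that member receptors are known to target were also listed, with 19 of 25 measured. Their protein levels were not measured, and receptors act on proteins, so these values describe the messages only. Of the 19, 1 was lower past 1.4-fold and 0 were higher (5.26% and 0%, against 1.67% and 1.51% of all named genes). It was *CDT1* (-0.56), the replication licensing factor targeted by SKP2, which had -0.28 in siREG4 and 0.28 in siControl. *AURKB*, the mitotic kinase handled by KLHL21 (0.14 for its gene), was at -0.47, just short of the threshold. *KRT14*, the keratin targeted by KLHL24, was at 0.10, within the range of the *KRTAP* genes, beside 1.23 for *KLHL24*. *MYOD1*, a muscle factor targeted by atrogin-1, was at -0.03, beside 1.53 for *FBXO32*. Among messages of FBXW7 substrates, *MCL1* (0.47) and *JUN* (0.32) lay above 0, and *CCNE1* (-0.27) and *MYC* (-0.19) below 0. *BCL6* (0.23) and its receptor gene *FBXO11* (0.21) were both above 0.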
